A study of Mus musculus with 2 samples.

Results

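Nuclear receptors are transcription factors, many of which are switched by a small fat-soluble ligand such as a steroid, thyroid hormone, a retinoid or a fatty acid. Here 31 genes of this system were followed in mouse gastrocnemius muscle, chosen by name among the 34745 genes of the count table: 26 receptors of the PPAR, RXR, thyroid hormone, retinoic acid, vitamin D, liver X, NR2, steroid, NR4A and NR6A groups, and 5 coregulators. The receptors of the circadian clock, such as the REV-ERB genes, were left out of the set and used only beside it. Total RNA was sequenced from 1 library of Cipc flox/flox mice, in which Cipc carries loxP sites, and from 1 library of Cipc scKO mice. Both were C57BL/6 and 8 weeks old. By the series title scKO stands for a deletion in satellite cells, which regenerate muscle fibres; the labels name neither the Cre driver nor a pool of animals, and they do not say whether these mice were of the mdx strain that the title mentions. Cipc encodes an inhibitor of CLOCK and BMAL1, the activating pair of the circadian clock, and the question was how its loss alters muscle RNA.

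Many of these receptors pair with a retinoid X receptor (RXR) and sit on DNA near target genes with or without ligand. Some steroid receptors, such as the glucocorticoid receptor, enter the nucleus when they bind hormone. Without ligand, several receptors recruit corepressors such as NCOR1, and ligand exchanges these for coactivators of the NCOA family. In muscle the PPARs govern fat oxidation, thyroid hormone receptors set fibre type and heat production, the glucocorticoid receptor governs protein breakdown and fuel use, and the NR4A genes are switched on within minutes by exercise, adrenaline and cAMP.

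The flox/flox library held 14727219 counts and the scKO library 13842100. Transcripts of the mitochondrial genome took 25.73% and 25.7% of them. Cipc, counted over the whole gene, had 658 and 111 counts and so was 5.72-fold lower in scKO. Muscle fibre markers such as Acta1, Ckm and the fast myosin Myh4 were abundant in both libraries, with a summed 143343 and 136257 CPM (counts scaled to the library total) over 12 markers. With 1 library per genotype the values below compare these libraries and have no replicate check. Values are given with the flox/flox library first. Brackets give the log2 ratio (scKO over flox/flox) and its exact 95% interval, which covers counting error only. In whole muscle, fewer cells of a type and less RNA per cell cannot be told apart.

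The member with the lowest ratio, Nr4a2, belongs to a family of 3 close relatives, of which only Nr4a2 differed at least 2-fold. Its promoter and those of Nr4a1 and Nr4a3 are shown because all 3 carry several copies of TGACG, the core letters of the cAMP response element. The fourth promoter is that of Nr3c2, the mineralocorticoid receptor, which had the second-lowest ratio of the tested genes of the set. Each runs from 250 bases before to 50 bases after a start of the gene in RefSeq (GRCm38.p6) and reads 5′ to 3′ on the gene's strand. Capitals mark TGACG or its complement CGTCA.
Nr4a1 (chr15:101266596-101266895, plus strand): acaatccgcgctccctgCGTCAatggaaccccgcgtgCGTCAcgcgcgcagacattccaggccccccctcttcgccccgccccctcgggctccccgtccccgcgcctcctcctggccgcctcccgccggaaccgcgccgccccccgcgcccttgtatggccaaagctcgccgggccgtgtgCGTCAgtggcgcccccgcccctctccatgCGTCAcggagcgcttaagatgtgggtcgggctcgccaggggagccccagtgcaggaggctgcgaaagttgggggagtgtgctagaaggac
Nr4a2 (chr2:57123954-57124253, minus strand): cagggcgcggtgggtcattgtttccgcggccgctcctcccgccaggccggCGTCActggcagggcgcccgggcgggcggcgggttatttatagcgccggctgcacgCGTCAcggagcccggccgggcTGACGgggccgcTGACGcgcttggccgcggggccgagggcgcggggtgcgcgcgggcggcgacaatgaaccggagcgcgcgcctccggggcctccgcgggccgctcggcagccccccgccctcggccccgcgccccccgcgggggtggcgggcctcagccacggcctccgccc
Nr4a3 (chr4:48045055-48045354, plus strand): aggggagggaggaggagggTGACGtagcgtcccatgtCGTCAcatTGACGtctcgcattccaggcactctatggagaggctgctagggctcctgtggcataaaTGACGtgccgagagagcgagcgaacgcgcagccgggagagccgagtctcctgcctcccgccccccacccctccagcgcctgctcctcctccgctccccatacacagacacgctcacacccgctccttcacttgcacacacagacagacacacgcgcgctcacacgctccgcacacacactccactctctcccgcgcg
Nr3c2 (chr8:76902080-76902379, plus strand): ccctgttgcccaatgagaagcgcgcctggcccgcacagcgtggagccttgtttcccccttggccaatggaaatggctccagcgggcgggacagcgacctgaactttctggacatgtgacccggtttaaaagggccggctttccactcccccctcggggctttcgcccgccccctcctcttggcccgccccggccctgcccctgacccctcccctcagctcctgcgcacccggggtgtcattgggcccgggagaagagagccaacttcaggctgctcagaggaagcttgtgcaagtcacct
The NR4A promoters each held 4 matches and that of Nr3c2 held 0. At least 4 matches were found in 76 of 32851 promoters of this length (0.231%), and at least 1 match in 20.8%. The limit of 4 is the number that the NR4A promoters themselves hold, so this share is a description and no test. TGACG contains CG, and the windows of Nr4a1, Nr4a2 and Nr4a3 were 72.3%, 81.7% and 64.7% G or C. The share among promoters of like composition was not computed. The full palindrome TGACGTCA, which contains TGACG, was in none of these 4 windows and in 1.79% of all promoters. The E box CACGTG, the letters that CLOCK and BMAL1 bind, was also in none of the 4. Among the 27 genes of the set with a promoter entry it was found in 2, Rara and Thrb, a share of 7.41% beside 8.09% of all genes with an entry. TGACG itself occurred in 12 of the 27 (44.4%, beside 23% of all genes). AGGTCA, the core that most nuclear receptors recognise, occurred in 7 of the 27 genes (25.9%, beside 18.1% of all genes). Some genes have several promoter entries, and the 27 had 43 in all. Counted per promoter, TGACG occurred in 32.6% of these beside 20.8% of all promoters, and AGGTCA in 18.6% beside 16.3%. Both strands were searched, and a match is only a run of letters.

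Of the 31 genes, 29 had at least 20 counts summed over both libraries and were tested. A gene was called where it differed at least 2-fold and its interval left out a ratio of 1. By that rule 0 of the 29 were higher in scKO and 2 were lower, Nr4a2 and Nr3c2. Over all 12662 tested genes 1.49% were called higher and 1.91% lower. Both called genes had summed counts between 100 and 1000, as did 20 of the 29; of all genes in that range 0.836% were called lower. Intervals lay wholly above 0 for 4 members (Ppara, Rarb, Nr1h3 and Nr4a3) and wholly below 0 for 4 (Nr4a1, Nr4a2, Nr3c2 and Nrip1), beside 12.8% and 12.3% of all tested genes. Scaling by total count instead changed that split to 7 above and 3 below, adding Esr1, Nr2f2 and Ncoa3 and losing Nrip1. The remaining 21 intervals included 0. At a 1.5-fold limit 2 members were called lower and 0 higher, beside 4.12% and 3.47% of all tested genes. The median log2 ratio of the 29 was 0.010, close to 0.0021 over all tested genes, whose quartiles were −0.18 and 0.17. Log2 ratios within 0.25 of 0 were found for 21 of the 29 members (72.4%), beside 63.3% of all tested genes. Exons of 11 of the 31 genes share bases with another gene in GENCODE M21. The shared part was over 10% of exon length for Rarb, Nr2c2 and Nr2f6 only; Nr1h3, Nr2f1, Nr2f2, Ncoa1, Ncoa3 and Ncor1 shared at most 7.46%; Thra shared 5.70% and Nr3c2 3.82%.

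**Figure D1:**
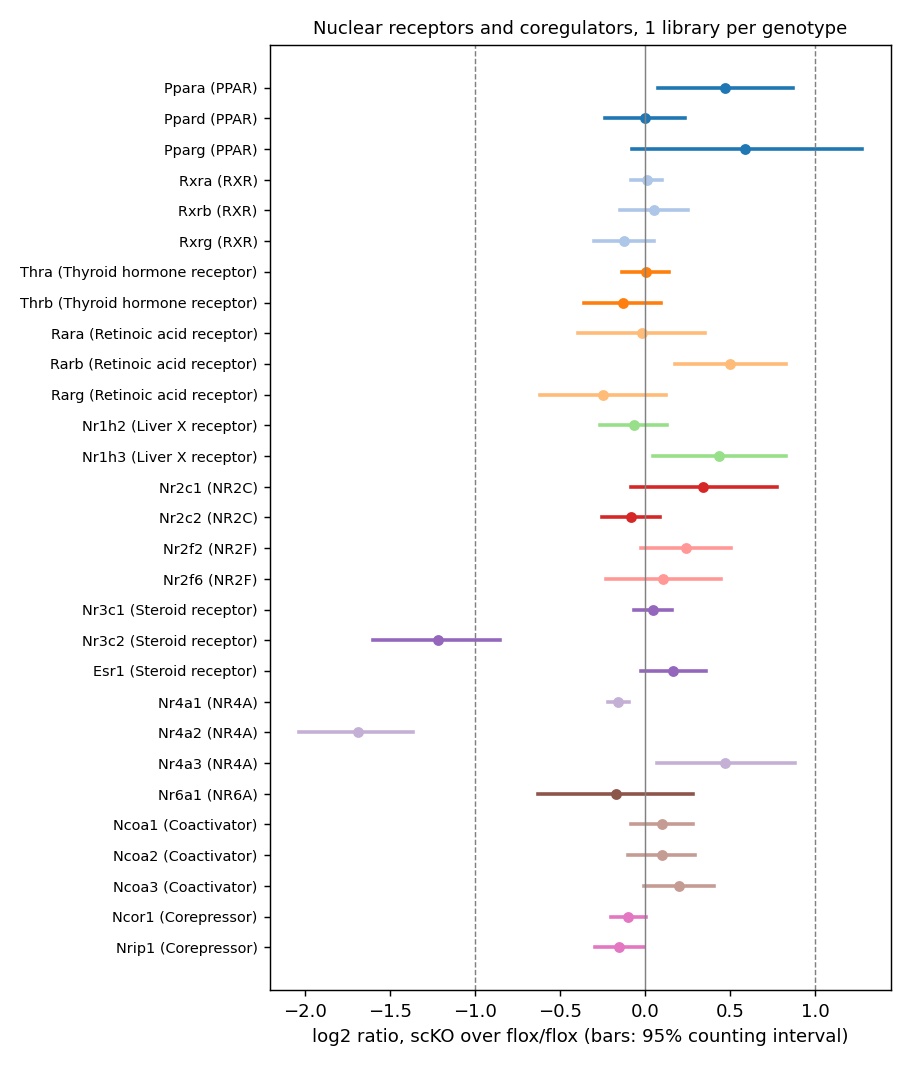
Log2 ratio of scKO over flox/flox (horizontal axis) for the 29 tested genes, grouped by role, 1 library per genotype. Points are ratios, bars are 95% counting intervals, and dashed lines mark 2-fold; Nr4a2 (−1.69) and Nr3c2 (−1.22) lie beyond the lower line and no gene lies beyond the upper.

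Levels of different genes were compared as FPKM, counts per kilobase of transcript scaled to library size, as the authors deposited them. FPKM was at least 1 in both libraries for 25 of the 31 genes, beside 8455 of all 34745 genes. Nr4a1 stood far above the rest, at 118 FPKM in flox/flox and 109 in scKO. Next came Rxra at 16.3 and 16.9, Thra at 10.1 and 10.4, Rxrg at 9.30 and 8.78 and the glucocorticoid receptor gene Nr3c1 at 5.52 and 5.86. The lowest detected were Nr6a1, at 0.364 and 0.332, and Nr2f1, at 0.0635 and 0.0225. Vdr had 0 counts in both libraries, which allows up to 0.204 CPM in flox/flox and 0.217 in scKO. The order of the first 5 was the same in both libraries. Nr4a2 went from 10th to 25th place, a larger change of rank than that of any other member. These levels rest on the authors' transcript lengths, which were 0.576 (Rarb) to 2.59 (Nr1h2) times the merged exons in GENCODE M21. With the GENCODE lengths Nr4a1 and Rxra stayed in the first 2 places, and Rarb went from 13th to 24th in flox/flox.

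**Figure D2:**
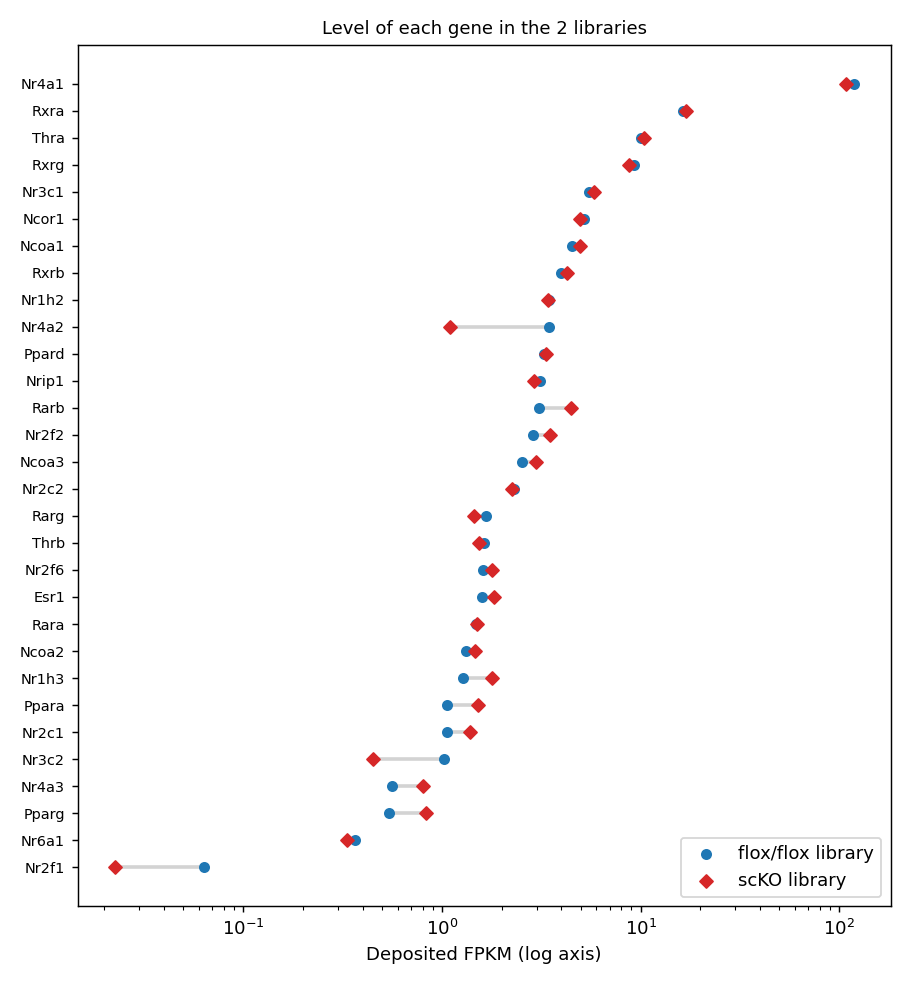
Deposited FPKM (horizontal log axis) of the 30 genes with counts, ordered by level in flox/flox; circles are the flox/flox library and diamonds the scKO library. Nr4a1 is highest at 118 and 109 FPKM, and the widest gaps among tested genes are those of Nr4a2 (3.47 and 1.10) and Nr3c2 (1.02 and 0.450).

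The NR4A receptors have no pocket open to a classical ligand and are governed mainly by how much of them is made. Nr4a1, also called NUR77 (ENSMUSG00000023034, chromosome 15, 101254269 to 101274795, GRCm38), had 4306 and 3729 counts. It was slightly lower, at a log2 ratio of −0.16 (−0.22 to −0.09). Nr4a2, or NURR1 (ENSMUSG00000026826, chromosome 2, 57106830 to 57124003), had 325 and 97 counts. It was 3.23-fold lower in scKO, at −1.69 (−2.04 to −1.36), and was the 20th lowest of the 8243 genes with at least 100 counts in either library. Nr4a3, or NOR1 (ENSMUSG00000028341, chromosome 4, 48045153 to 48086447), had 91 and 122 counts. It was higher in scKO, at 0.47 (0.07 to 0.88). The 3 relatives thus lay on both sides of 0, but only Nr4a2 was called. The ratio of Nr4a1 lay within the quartiles of all tested genes (−0.18 and 0.17).

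Ratios between relatives within a library do not depend on how the libraries are scaled. Nr4a2 counts amounted to 7.55% of Nr4a1 counts in flox/flox and to 2.60% in scKO, a log2 change of −1.54 (−1.89 to −1.20). Nr4a3 counts went from 2.11% to 3.27% of those of Nr4a1, a change of 0.63 (0.22 to 1.04). Per length, Nr4a1 made up 96.7% of the family's FPKM in flox/flox and 98.3% in scKO, so the summed level of the family followed Nr4a1. No exon of the 3 genes overlaps another gene in GENCODE M21.

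The NR4A genes are classic targets of cAMP signalling through CREB, and 19 other genes of cAMP and CREB signalling were read beside them. Of these 7 had intervals below 0 and 3 above, beside 12.3% and 12.8% of all tested genes, and beside 20% and 23.1% of genes with at least 1000 summed counts, where intervals are narrowest; the same shares stand behind the counts of the other lists below. The median log2 ratio was −0.22, with an order-statistic interval over the genes of −0.38 to 0.08. These genes were read in the same libraries, so the interval describes the list and does not test the genotype. Junb, an immediate early gene, had 621 and 365 counts (−0.71, −0.91 to −0.53). Fos, of the same class, had 782 and 510 (−0.57, −0.73 to −0.40). The kinase gene Sik1, a feedback inhibitor of the CREB coactivators, had 1045 and 775 (−0.38, −0.52 to −0.24). The coactivator gene Crtc3 had 237 and 170 (−0.43, −0.72 to −0.14). Other members went the opposite way: Rgs2, a brake on G protein signalling, had 140 and 296 counts and was 2.19-fold higher (1.13, 0.84 to 1.43), and the phosphodiesterase gene Pde4b stood at 0.48 (0.33 to 0.64). Creb3l1 had 24 and 11 counts (−1.04, −2.25 to 0.01) and Pde10a 19 and 30 (0.70, −0.17 to 1.62). Crem and Creb1, which encode cAMP-responsive factors, stood at −0.03 (−0.45 to 0.38) and −0.04 (−0.28 to 0.21). Ratios lay below 0 for 14 of the 19 genes and above 0 for 5, but 9 of the 19 intervals included 0. Of all 12662 tested genes, 6277 had ratios below 0 and 6385 above.

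Among the steroid receptors the 2 corticosteroid receptors differed. Nr3c1, the glucocorticoid receptor (ENSMUSG00000024431, chromosome 18, 39410545 to 39519421), had 1361 and 1357 counts, at a log2 ratio of 0.05 (−0.06 to 0.16). Nr3c2, the mineralocorticoid receptor, which also binds glucocorticoids (ENSMUSG00000031618, chromosome 8, 76899442 to 77245012), had 210 and 87 counts. It was 2.33-fold lower, at −1.22 (−1.60 to −0.85), and was the 37th lowest of the 8243 genes. Its counts went from 15.4% to 6.41% of those of Nr3c1, a log2 change of −1.27 (−1.66 to −0.88). Exons of Nr3c2 share 247 bases (3.82% of its exon length) with Gm10649, a noncoding RNA on the opposite strand that had 2 and 0 counts. Esr1, the oestrogen receptor α gene, had 443 and 480 counts (0.17, −0.02 to 0.36).

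**Figure D3:**
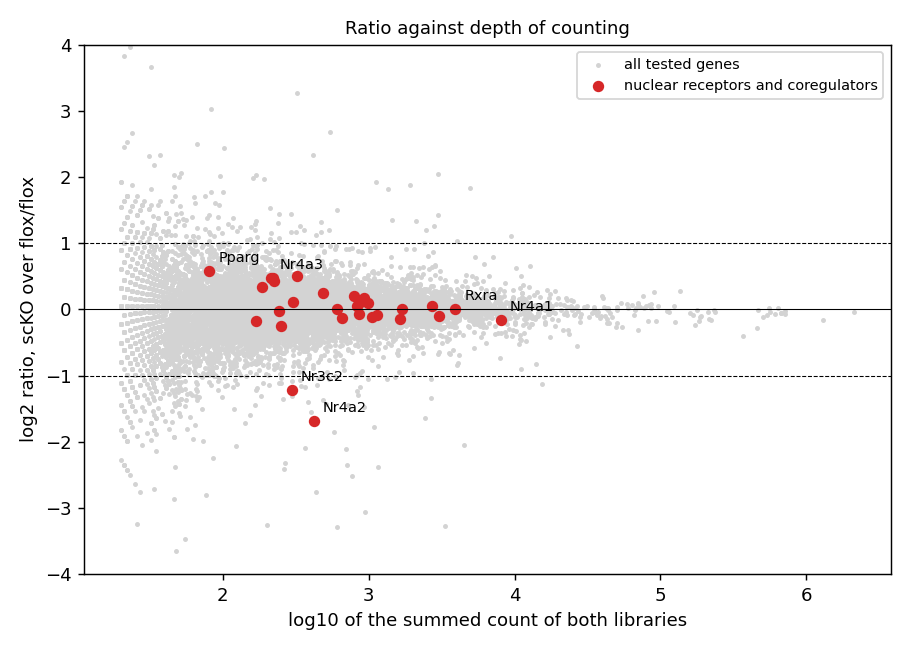
Log2 ratio of scKO over flox/flox (vertical axis) against the log10 summed count of both libraries for all 12662 tested genes (grey) and the 29 tested nuclear receptors and coregulators (red); 18 genes lie beyond the plotted limits of 4. Nr4a2 and Nr3c2 stand below nearly all genes of similar counts, and the other 27 lie within the dashed 2-fold lines.

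Several well-known glucocorticoid-induced genes were higher in scKO although Nr3c1 differed little. Of 25 tested glucocorticoid receptor partners and targets, 10 had intervals above 0 and 5 below, beside 12.8% and 12.3% of all tested genes and 23.1% and 20% of those with at least 1000 summed counts. Fkbp5, whose protein binds the receptor and dampens it, had 325 and 571 counts (0.86, 0.67 to 1.07). The transcription factor gene Cebpd had 305 and 543 (0.88, 0.68 to 1.09), and the metallothionein gene Mt1 176 and 315 (0.89, 0.62 to 1.17). The related gene Mt2 had 104 and 166 (0.72, 0.36 to 1.09). Glutamine synthetase (Glul) had 5100 and 7731 counts (0.65, 0.60 to 0.70). Each of these 5 was at least 1.57-fold higher, as was Cdkn1a, with 83 and 126 counts (0.65, 0.24 to 1.07). None reached 2-fold. Of all tested genes 3.47% were called at least 1.5-fold higher.

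Smaller ratios in the same direction were those of Ddit4 (0.49, 0.37 to 0.61) and Klf15 (0.47, 0.29 to 0.65). So were those of Tsc22d3, which encodes the glucocorticoid-induced leucine zipper protein GILZ (0.33, 0.25 to 0.40), and the kinase gene Sgk1 (0.31, 0.24 to 0.38). Sgk1 is also a classic mineralocorticoid target. The 5 genes with intervals below 0 included the muscle ubiquitin ligase genes Fbxo32 (−0.27) and Trim63 (−0.25). The others were the phosphatase gene Dusp1 (−0.29), the clock gene Per1 (−0.23) and Cebpb (−0.22). Dusp1, Per1 and Cebpb are also in the cAMP and CREB list, among its 7 genes with intervals below 0. Zbtb16, another glucocorticoid-induced gene, had 985 and 987 counts (0.05, −0.07 to 0.18), and Klf9 stood at −0.00 (−0.08 to 0.08). Hsd11b1, which regenerates active glucocorticoid inside the cell, had 128 and 99 counts (−0.32, −0.71 to 0.07). The median of the list was 0.06, with an interval over its genes of −0.11 to 0.47, which describes the list and does not test the genotype. The hour of tissue collection, with which corticosterone and several of these genes vary, is not in the labels and was not tested.

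Of the PPARs, which respond to fatty acids, Ppara (ENSMUSG00000022383, chromosome 15, 85734983 to 85802819) had 95 and 127 counts and was higher in scKO, at 0.47 (0.08 to 0.87). Ppard, the form with the highest level in this muscle (67.1% of the family's FPKM in flox/flox and 58.8% in scKO), had 311 and 300 counts, at −0.00 (−0.23 to 0.23). Pparg, the fat cell form, had 33 and 48 counts; its ratio of 0.58 was the highest of the set, but its interval (−0.08 to 1.28) included 0. The 10 adipocyte markers had 1 interval above 0 and 1 below (1 above and 0 below with total-count scaling). They summed to 346 and 373 CPM, of which Fabp4 gave 150 and 181 and Pnpla2 146 and 137. Adipoq had 52 and 55 counts. The part of these markers in the Pparg value was not tested.

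Targets of PPARs did not share a direction. Of 22 tested, 7 had intervals above 0 and 5 below, with a median of 0.04. The lowest were Hadhb, a subunit of the mitochondrial trifunctional protein of fat oxidation, at −1.02 (−1.18 to −0.86), and Pdk4, the kinase that blocks pyruvate oxidation, with 7344 and 3804 counts (−0.90, −0.95 to −0.84). Hadha, which encodes the partner subunit of Hadhb, had 5360 and 4779 counts (−0.11, −0.17 to −0.06). Ucp3, the muscle uncoupling protein gene, had 2029 and 1407 (−0.48, −0.58 to −0.38). Ech1, a fat oxidation enzyme, was highest at 0.28 (0.18 to 0.38). The fatty acid importer gene Cpt1b stood at 0.13 (0.07 to 0.20), and Angptl4, an inhibitor of lipoprotein lipase, had 27 and 20 counts (−0.37, −1.29 to 0.51).

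The RXRs, the common partners of the PPAR, thyroid, retinoid and liver X receptors, were nearly level. Rxra had 1995 and 1939 counts (0.01, −0.08 to 0.10). Rxrb had 414 and 415 (0.05, −0.15 to 0.25), and Rxrg, the form typical of striated muscle, 558 and 495 (−0.12, −0.30 to 0.06). These 3 intervals exclude a change of 1.5-fold in either direction on counting error alone. The shares of the family's FPKM were 55.2% and 56.5% for Rxra and 31.4% and 29.3% for Rxrg.

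Both thyroid hormone receptors had intervals around 0. Thra had 863 and 835 counts (0.00, −0.14 to 0.14), and Thrb 348 and 307 (−0.13, −0.36 to 0.10). The end of Thra lies opposite that of the clock gene Nr1d1, with which it shares 263 bases (5.70% of its exon length); Nr1d1 had 950 and 1599 counts, and whether strand was used in counting is not given. Of 17 tested genes of thyroid hormone transport, conversion and response, 5 had intervals above 0 and 3 below, with a median of 0.02. Thrsp, named for its response to thyroid hormone, had 173 and 234 counts (0.49, 0.20 to 0.78). The calcium pump gene of slow fibres, Atp2a2, had 13572 and 10132 (−0.37, −0.41 to −0.33). Dio2, which makes active hormone, had 30 and 20 counts (−0.52, −1.43 to 0.33), and Bcl3 18 and 11 (−0.63, −1.89 to 0.50).

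Of the retinoic acid receptors Rarb, itself a classic retinoic acid target (ENSMUSG00000017491, chromosome 14, 16430839 to 16819156), had 137 and 187 counts and was higher in scKO, at 0.50 (0.17 to 0.83). Rara had 124 and 118 (−0.02, −0.40 to 0.36) and Rarg 139 and 113 (−0.25, −0.62 to 0.12). Rarb counts went from 98.6% to 165% of those of Rarg, a log2 change of 0.75 (0.25 to 1.25). Against Rara they went from 110% to 158%, a smaller change of 0.52 (0.02 to 1.02). A limit of the Rarb value is that 34.1% of its exon length lies opposite Top2b in GENCODE M21; Top2b had 672 and 571 counts (−0.18, −0.35 to −0.02), the direction opposite to that of Rarb.

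Among 10 tested genes of retinoid handling 2 had intervals above 0 and 0 below. Rbp7, a retinol-binding protein gene, had 40 and 71 counts (0.87, 0.30 to 1.48). Aldh1a1, which makes retinoic acid, had 855 and 1065 (0.37, 0.24 to 0.50). Cyp26b1, which degrades it, had 83 and 60 (−0.41, −0.92 to 0.08). Rdh10, which makes retinaldehyde, had 37 and 52 (0.54, −0.09 to 1.19). The other 10 listed genes of this group had under 20 summed counts, among them Rbp4 with 2 and 15.

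The liver X receptors sense oxidised cholesterol. Nr1h3 (LXRα; ENSMUSG00000002108, chromosome 2, 91184061 to 91202834) had 98 and 128 counts and was higher in scKO, at 0.43 (0.05 to 0.83). Nr1h2 (LXRβ) had 446 and 411 (−0.07, −0.26 to 0.13). Of 11 tested LXR targets 3 had intervals above 0 and 0 below, with a median of 0.10. These were the desaturase gene Scd1, with 855 and 1163 counts (0.49, 0.37 to 0.62), Mylip, which tags the LDL receptor for breakdown (0.39, 0.13 to 0.65), and Smpdl3a (0.20, 0.06 to 0.34). The exporter gene Abcg1 had 15 and 26 counts (0.82, −0.13 to 1.87). The cholesterol exporter gene Abca1 had 293 and 304 counts (0.10, −0.13 to 0.34), and Srebf1, the lipid synthesis regulator, 451 and 397 (−0.13, −0.33 to 0.06). Besides Vdr, 6 of 7 listed vitamin D genes, Cyp24a1 and Cyp27b1 included, had at most 1 count in either library, and Cyp27a1 had 1069 and 1025.

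The NR2 receptors are orphan receptors that often repress. None of the 4 tested had an interval that left out 0. Nr2c1 had 84 and 103 counts (0.34, −0.08 to 0.78) and its relative Nr2c2 598 and 546 (−0.08, −0.25 to 0.09). Nr2f2, or COUP-TFII, found in veins and mesenchymal cells, had 227 and 259 (0.24, −0.02 to 0.50), and Nr2f6 148 and 154 (0.11, −0.23 to 0.44). In all, 54.4% of the exon length of Nr2f6 lies opposite Ocel1, and 30.7% of that of Nr2c2 opposite Mrps25. Nr2f1 had 6 and 2 counts, and Nr6a1, a germ cell receptor, 91 and 78 (−0.17, −0.63 to 0.28). Beside Nr2f2, 11 endothelial markers had 3 intervals above 0 (5 with total-count scaling) and 0 below and summed to 312 and 361 CPM, while 10 markers of the mesenchymal (fibro-adipogenic) progenitors had 0 above and 6 below and summed to 606 and 509 CPM. Their part in the Nr2f2 value was not tested.

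The coregulators moved little. The p160 coactivator genes stood just above 0: Ncoa1 had 486 and 503 counts (0.10, −0.08 to 0.28), Ncoa2 419 and 433 (0.10, −0.10 to 0.30) and Ncoa3 379 and 420 (0.20, −0.00 to 0.40). The corepressors stood just below: Ncor1 had 1602 and 1445 counts (−0.10, −0.20 to 0.01), and Nrip1, or RIP140, which represses oxidative genes in muscle, 875 and 761 (−0.15, −0.29 to −0.01). All 5 were within 1.15-fold of equal.

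A further 27 tested coregulators had 8 intervals above 0 and 2 below, beside 12.8% and 12.3% of all tested genes; total-count scaling changed this to 10 above and 0 below. Their median was 0.13, with an interval over the genes of −0.04 to 0.22, which describes the list and does not test the genotype. The 2 below were Carm1, an arginine methyltransferase gene, at −0.14 (−0.27 to −0.01), and Sin3a, a scaffold of deacetylase complexes, at −0.24 (−0.47 to −0.01). Hdac3, the deacetylase of the NCOR complex, had 603 and 760 counts (0.38, 0.23 to 0.54). Its complex partners Tbl1xr1 and Gps2 stood at 0.32 (0.03 to 0.60) and 0.22 (0.02 to 0.42), while Tbl1x stood at −0.04 (−0.28 to 0.20). Med1, the Mediator subunit that contacts liganded receptors, had 323 and 429 counts (0.46, 0.25 to 0.67). Ncoa7 had 34 and 49 (0.57, −0.08 to 1.25). Ncoa4 stood at 0.48 (0.11 to 0.85). Ppargc1a, which encodes PGC-1α and is also in the cAMP and CREB list, stood at 0.17 (0.01 to 0.34). Of the 22 nuclear receptors outside the set 8 were tested, with 3 intervals above 0 (Nr1d1, Nr1d2 and Esrra) and 0 below. Esrra, an orphan receptor of mitochondrial genes, had 947 and 1086 counts (0.25, 0.12 to 0.38), and Esrrb 96 and 106 (0.19, −0.22 to 0.61). Rora stood at 0.02 (−0.08 to 0.12).

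**Figure D4:**
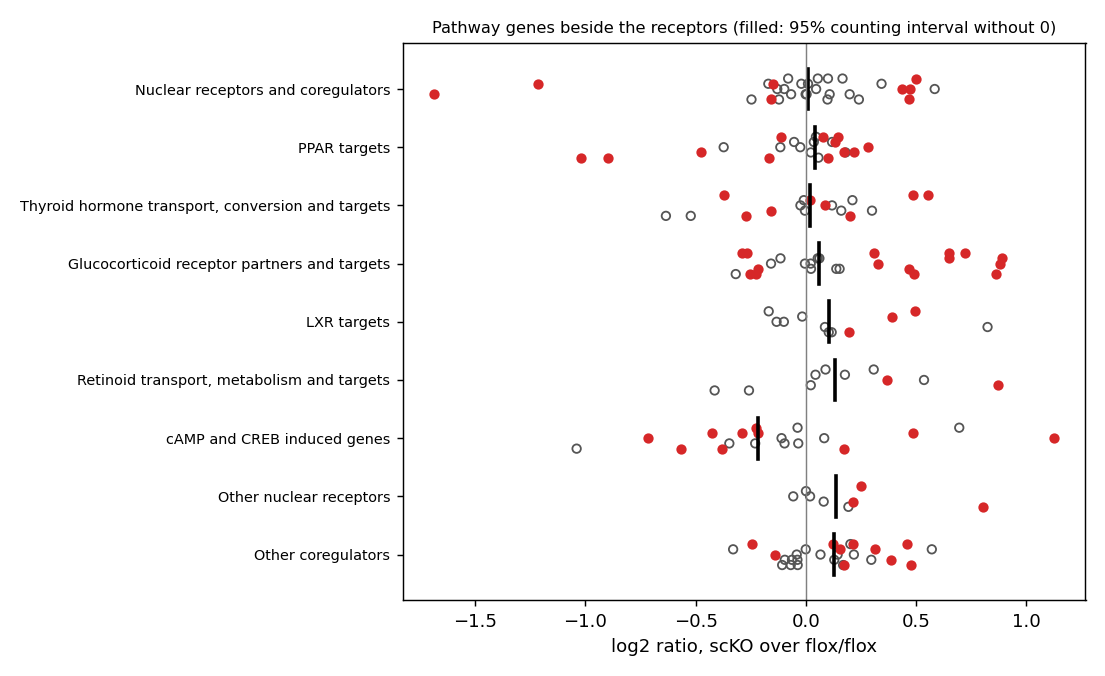
Log2 ratio of scKO over flox/flox for each tested gene (points) of the receptor set and of 8 pathway lists, 1 library per genotype; filled points have a 95% counting interval without 0, and vertical bars are medians. Medians run from −0.22 for the cAMP and CREB list to 0.14 for the other nuclear receptors; the glucocorticoid list spreads from −0.32 to 0.89.

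The satellite cells, from which by the title Cipc was deleted, are a small part of whole muscle, whereas the 5.72-fold lower Cipc count (658 and 111) was measured over all of its cells. How much Cipc RNA came from satellite cells was not measured, and the Cipc value gives no evidence that other cells kept theirs. The 9 satellite cell markers summed to 129 and 130 CPM, of which Itga7 gave 63.1 and 64.9. Their intervals lay above 0 for 0 markers and below 0 for 2. These were Pax7, with 69 and 39 counts (−0.76, −1.38 to −0.19), and Myod1, with 201 and 130 (−0.58, −0.91 to −0.25). Smooth muscle and pericyte markers summed to 716 and 759 CPM, of which Rgs5 gave 326 and 325 and Abcc9 252 and 278. They had 2 intervals above 0 (4 with total-count scaling) and 1 below (Cnn1, 18 and 4 counts). Macrophage markers summed to 60.7 and 63.6 CPM, with 1 interval above 0 and 1 below. Schwann cell and nerve markers summed to 87.0 and 83.2 CPM, with 0 intervals above 0 and 2 below (Sox10, 27 and 9 counts, and Pmp22). Which cells the receptor RNA came from was not measured.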

How the data were processed

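Total RNA of 2 gastrocnemius libraries was analysed. The authors deposited raw counts per gene and FPKM per gene, per the file headers. CASAVA, HISAT2 2.0.4, StringTie 1.3.0 and the build GRCm38 are named, without roles, per the submitters' processing notes; the annotation and the counting and strand settings are not given in the sources used here. Genes were named from a table that matched 34267 identifiers, positions and overlaps came from GENCODE M21, and promoters from RefSeq (GRCm38.p6).

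Counts were scaled with TMM (edgeR 4.0.16, R 4.3.3). Log2 ratios used a prior count of 0.5, and intervals were exact conditional binomial (Clopper-Pearson) at 95%. Intervals between relatives were exact conditional odds ratios. Genes with a summed count of at least 20 were tested, without p-values, since each genotype had 1 library. Motifs were searched on both strands. Python 3.11.15, numpy 2.4.6, scipy 1.17.1, pandas 2.3.3 and matplotlib 3.10.9 were used. The procedure was run on simulated counts that held counting error only, so variation between animals was not covered. Alternatives were total-count and DESeq2 1.42.0 scaling, other count minimums, a prior count of 5, FPKM with a pseudocount of 0.1, and a loess correction for length and GC content.

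The members and lists were chosen with earlier results of these data known. Named were all members, Cipc, partners of overlapping members and up to 4 genes with the largest ratios of each pathway list (marker lists are given by counts and sums); further list genes and the TGACG motif were chosen after their values were seen. Planned protein descriptions were not made. Some list genes are not reported here by name.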

Additional observations from a re-analysis of the deposited data

How the results depend on the processing

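No paired analysis was possible because each genotype had 1 library, and for the same reason no library could be left out. Nr4a2 and Nr3c2 were called at least 2-fold lower, and no member higher, under both other scalings, both other count minimums and a 1.5-fold threshold. Nr4a2 ranged from −1.70 to −1.57 and Nr3c2 from −1.22 to −1.03 over the alternatives, the smallest sizes being on the FPKM scale. Total-count scaling moved the median of all tested genes from 0.0021 to 0.0404 and raised the members with intervals above 0 from 4 to 7; those below 0 went from 4 to 3, and to 5 with DESeq2 size factors, which added Ncor1. Limiting the set to the 19 tested members whose exons overlap no other gene, an alternative chosen after seeing the data, left 1 called lower (Nr4a2) and 2 intervals above 0. The median of the members lay between −0.0007 and 0.0484 throughout. Medians of the pathway and marker lists stayed within the order-statistic intervals of their genes under each alternative run. Those intervals are wide (−0.58 to 0.33 for the satellite cell markers), so this is a weak check. The macrophage median went from −0.03 to 0.07 with a minimum summed count of 100. The retinoid median went from 0.13 to 0.05 with a minimum of 1. Counting depth limits the members with under 100 counts per library, such as Pparg and Nr6a1, whose intervals are the widest of the set.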
